A study of Mus musculus with 11 samples.

Results

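The genome-wide map of Smc1a in wild-type mouse thymocytes rests on 2 chromatin immunoprecipitation sequencing (ChIP-seq) libraries, replicate 1 and replicate 2. Their lists held 25484 and 17726 peaks, together 43210 of the 120616 peaks in the 6 lists of the series. Every Smc1a peak was used. Overlapping or touching peaks of both lists were merged into 28128 regions, and a reproducible site was a merged region with a peak from each list. There were 14848 such sites (52.8% of the merged regions), against 10493 regions of replicate 1 alone (37.3%) and 2787 of replicate 2 alone (9.91%).

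The series concerns cohesin and chromatin in developing T cells. Both Smc1a libraries came from wild-type (WT) mice aged 6 weeks and from sorted thymocytes that carry CD4 and CD8 together, the double positive stage. The active chromatin mark H3K27ac is histone H3 carrying an acetyl group on lysine 27 at promoters and enhancers in use. It was mapped in 2 WT libraries and in 2 Rad21 -/- libraries of the same stage, also from mice aged 6 weeks. In the latter a floxed Rad21 allele was removed by Cre driven by Cd4, and per the labels Smc1a was precipitated from WT cells alone. Nothing in the labels says whether the replicates came from separate mice, so the spread between them may be technical. No gene annotation of the build was used here, so regions are given by position without gene names and the identity of the cells was not checked against marker genes.

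Cohesin is a protein ring that holds sister chromatids together and, outside of division, extrudes chromatin into loops. Smc1a and Smc3 are its long coiled-coil arms, and Rad21 closes the ring. In mammalian cells cohesin is known to gather at sites bound by CTCF, which halts moving rings, and also at active promoters and enhancers. Thymocytes at the double positive stage rearrange their T cell receptor alpha genes, a process known to depend on cohesin.

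Each peak carries a score given by the authors' peak caller, and it was used here to rank peaks within a list. Scores ran from 50 to 3163.02 in replicate 1, with a median of 153.0 and quartiles of 81.8 and 341.9. In replicate 2 they ran from 50.01 to 2497.13, with a median of 116.4 and quartiles of 71.3 and 222.2. The longer list thus also reached higher scores. Peaks covered 19.98 Mb in replicate 1 and 13.8 Mb in replicate 2, and reproducible sites covered 13.5 Mb.

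The first comparison asked how far the replicates called the same places. Of the replicate 1 peaks 58.8% were overlapped by a replicate 2 peak (Wilson 95% interval 58.2 to 59.4%). The reverse share, for replicate 2 peaks, was 84.3% (83.7 to 84.8%). The lists differ in length, and with equal numbers of top-scoring peaks both shares were 73.4%. These shares are the background for every subset described below, and the intervals cover counting error only.

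Agreement rose with score in both lists at every step from decile 1, the lowest scores, to decile 10, the highest. In replicate 1 it was 18.3% in decile 1, 53.2% in decile 5, 85.4% in decile 8 and 98.3% in decile 10. In replicate 2 it was 50.8% in decile 1, 89.3% in decile 5, 98.4% in decile 8 and 99.3% in decile 10. Peaks of the top decile were therefore called almost without exception in both libraries. Of the 1000 highest-scoring peaks 992 in each list had a partner, and of the top 100 it was 100 in replicate 1 and 98 in replicate 2. Of the top 10 it was 10 in replicate 1 and 8 in replicate 2. In decile 1, which reached up to a score of 59.94 in replicate 1 and 56.6 in replicate 2, 2086 replicate 1 peaks and 872 replicate 2 peaks had none.

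Acetylated surroundings went with agreement differently in the lists. A peak was called acetylated where it overlapped an H3K27ac region called in both WT lists, of which there were 13937. Among replicate 1 peaks the shared part was 59.3% of the acetylated (58.0 to 60.6%) and 58.7% of the others (58.0 to 59.4%). This near equality hid opposite directions along the score. In decile 1 the shares were 32.6% of acetylated and 13.4% of other peaks, and in decile 10 they were 96.4% and 98.7%. Acetylated replicate 1 peaks had the higher share in 6 deciles and the lower in 4. Among replicate 2 peaks the acetylated ones were shared less often, at 74.7% (73.4 to 75.9%) against 87.5% (86.9 to 88.0%). That direction held in all 10 deciles of replicate 2, with 43.0% against 53.4% in decile 1.

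**Figure D1:**
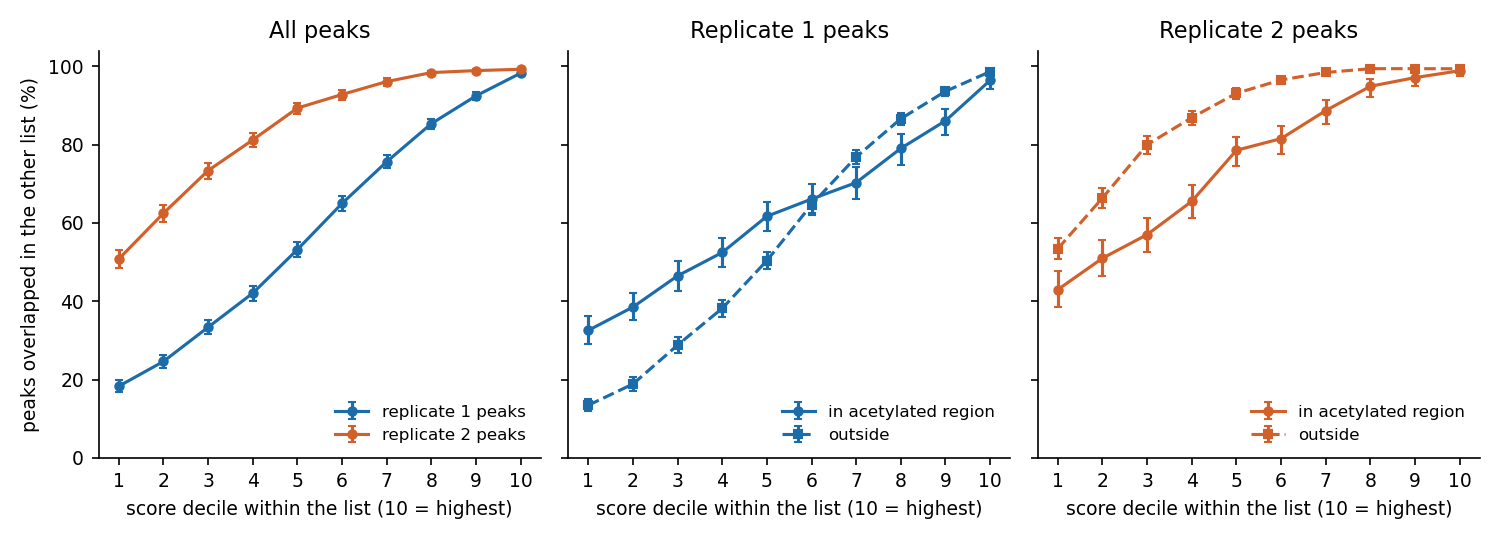
Share of Smc1a peaks overlapped by a peak of the other replicate (y axis, percent) by score decile within the list (x axis, 10 is highest), with Wilson 95% intervals, for all peaks and, per replicate, for peaks inside and outside H3K27ac regions called in both WT lists. Agreement rises from 18.3 to 98.3% in replicate 1 and from 50.8 to 99.3% in replicate 2, and the acetylated curve crosses the other in replicate 1 while it lies below throughout in replicate 2.

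Where both replicates had a peak, its position was close to the same. Over the 14645 sites with exactly 1 peak of each list, the midpoints lay a median of 49 bp apart (quartiles 22 and 91.5 bp), and 78.3% lay within 100 bp. The offset hardly moved with strength, at 54 bp in the decile of sites with the highest ranks and 46 bp in the decile with the lowest. Width was also close, with a median ratio of replicate 1 to replicate 2 of 1.01 (quartiles 0.866 and 1.17). A further 203 sites held more than 1 peak of a list, 141 of them split in replicate 1 and 89 in replicate 2.

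Scores at shared sites followed each other in part. Across the 14848 sites, which are not independent replicates, the Spearman correlation of scores between the lists was 0.68. Of 2500 sites in the top decile of replicate 1, 50.9% had a partner in the top decile of replicate 2 and 86.6% had one in its top 3 deciles. The top decile of replicate 2 had 1755 of the 14848 sites, so at most 70.2% could have had such a partner. The same 1273 sites were 72.5% of that smaller decile, of which 96.4% had a partner in the top 3 deciles of replicate 1. At the other end the order was weaker. In all, 19.3% of the 441 sites from the bottom decile of replicate 1 had a partner in the bottom decile of replicate 2. In the reverse direction it was 9.56% of the 889 sites, where 49.6% was the most possible. Of all 14848 sites only 889 lay in the bottom decile of replicate 2 and 441 in that of replicate 1. Both shares were thus above those over all sites.

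The highest-ranked sites lay on 5 different chromosomes (coordinates of build mm9, counted from 1). The first was on chromosome 14 from 54845267 to 54849464, with scores of 2687.44 and 2316.07 in replicates 1 and 2. It was 4198 bp wide, outside acetylated regions, and its nearest neighbour lay 8820 bp away. The second was on chromosome 7 from 80772547 to 80773957, with scores of 2646.57 and 2251.38, and belonged to a run of 5 sites. The third, on chromosome 2 from 39228387 to 39229133, scored 2873.03 and 2028.35 and stood 46729 bp from the next site. Those 3 were not acetylated. The fourth, on chromosome 13 from 13608441 to 13610115 (2651.12 and 2018.24), and the fifth, on chromosome 15 from 97679501 to 97681945 (2583.48 and 1944.29), both overlapped an acetylated region. Acetylated and other sites thus both stood among the 5 strongest.

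Peaks called in 1 replicate alone were weaker and narrower than shared ones. In replicate 1 the lone peaks had a median score of 85.8 against 265.1 for shared peaks, and a median width of 641 against 708 bp. In replicate 2 the values were 63.4 against 136.2 and 518 against 689 bp. Most lone peaks were not near misses. The nearest peak of the other list lay a median of 20890 bp away from replicate 1 lone peaks and 10754 bp away from those of replicate 2. It lay within 1000 bp for 4.99% and 13.6%, and beyond 100000 bp for 11.4% and 10.8%. Acetylated regions held 21.9% of lone and 22.4% of shared peaks in replicate 1. In replicate 2 they held 40.3% of lone and 22.2% of shared peaks, so the lone calls of that list lay more often in acetylated chromatin than its shared calls.

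A few strong peaks went without a partner, 44 in the top decile of replicate 1 and 13 in that of replicate 2. The 2 highest-scoring peaks of all in replicate 2 were among them. They lay on chromosome 9 from 123832681 to 123834571 (score 2497.13) and from 123842790 to 123844838 (score 2487.27), and replicate 1 had no peak within 66248 and 55981 bp of them. Another lone peak of replicate 2 stood between them, from 123840867 to 123842027, with a score of 782.87. None of the 3 overlapped an H3K27ac peak in any of the 4 libraries. In replicate 1 the strongest lone peak was on chromosome 17 from 39979852 to 39984282, with a width of 4431 bp and a score of 1580.97. The nearest replicate 2 peak was 2595680 bp away, and it too overlapped no H3K27ac peak. Others lay closer to a peak of the other list. The next in replicate 1, on chromosome 19 from 43827075 to 43828197 (score 1309.74), was 6746 bp from a replicate 2 peak and lay wholly inside H3K27ac peaks of all 4 libraries. Stretches of mm9 where any library gives high signal were not marked here, so whether these unpartnered peaks are such stretches was not tested.

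Cohesin peaks were narrow. The median width was 684 bp in replicate 1 (quartiles 530.75 and 866 bp, longest 12467 bp) and 667 bp in replicate 2 (517 and 866 bp, longest 10957 bp). H3K27ac peaks had medians of 1925 and 2164 bp in the WT libraries and of 2081 and 1852 bp in the Rad21 -/- libraries. The median widths of the libraries did not overlap between the targets. Their means were 675.5 ± 12.0 bp for Smc1a (SD, n = 2) and 2005.5 ± 142.4 bp for H3K27ac (SD, n = 4, both genotypes). The difference of -1330 bp, or 2.97-fold, gave p = 0.133 in a two-sided exact permutation test, the smallest that the 15 assignments of 6 libraries allow.

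Width grew with score by similar steps in both lists. The median went from 530 bp in decile 1 to 853 bp in decile 10 of replicate 1, and from 495 to 862 bp in replicate 2. Between the replicates the Spearman correlation of width was 0.76 across the 14645 sites with 1 peak each. Merged sites had a median width of 773 bp (quartiles 634 and 995 bp), and the central 80% lay between 523 and 1391 bp. A peak caller extends a peak where signal stays high, so score and width are not separate measures.

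Wide sites were mostly acetylated. The share of sites in acetylated regions was 6.30% in the narrowest width decile (202 to 523 bp), 12.9% in the fifth and 68.2% in the widest (1391 bp or more). Score percentile, the share of a list's peaks with the same or a lower score, changed less than acetylation over the upper end of that slope. Its median over the widest 3 deciles was 78.5, 78.6 and 79.4 in replicate 1 and 65.9, 67.4 and 71.3 in replicate 2, while the acetylated share went from 27.9 to 39.5 and 68.2%. Among the 538 sites of at least 2000 bp 83.3% were acetylated, against 19.7% of the rest. A wider site has more bases that can touch a region. Counted by the midpoint of the site alone, the shares were 6.16% in the narrowest and 67.3% in the widest decile, and 82.5% of the sites of at least 2000 bp against 19.3% of the rest.

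Acetylated and other sites ranked differently in the replicates. Acetylated sites had a median width of 1068 bp and the others 736 bp. In replicate 1 their median score percentile was 54.7 against 70.7 for the others, and in replicate 2 it was 58.2 against 56.8. Relative to the other cohesin sites, those in acetylated chromatin thus ranked lower in the first library and about level in the second.

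**Figure D2:**
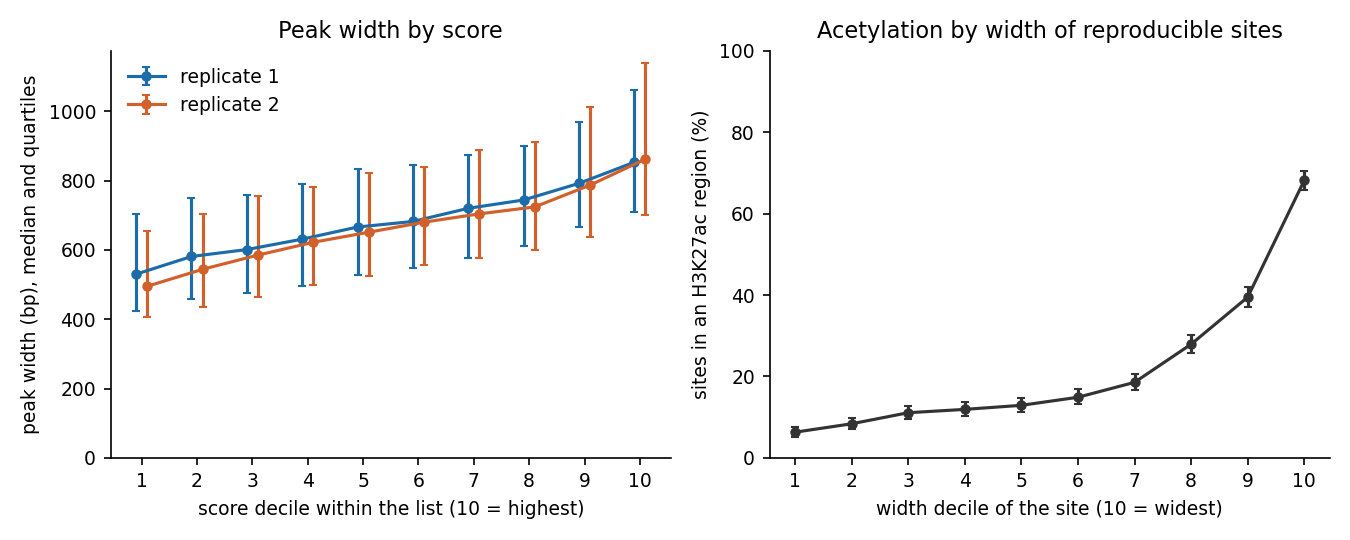
Left, width of Smc1a peaks (y axis, bp, median with quartiles) by score decile within the list (x axis) for each replicate; right, share of reproducible sites in an H3K27ac region of both WT lists (y axis, percent, with Wilson 95% intervals) by width decile (x axis). Median width rises from 530 to 853 bp in replicate 1 and from 495 to 862 bp in replicate 2, and the acetylated share rises from 6.30 to 68.2%.

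Neighbouring reproducible sites lay a median of 45194 bp apart, measured between their facing ends (quartiles 13822 and 117079.5 bp). The spread was wide. Gaps of up to 1000 bp made up 3.51%, those of 1000 to 5000 bp 9.04%, and those of 5000 to 20000 bp 19.1%. The largest class, 20000 to 100000 bp, held 39.7%, and 25.5% ran from 100000 bp to 1 Mb. The remaining 474 gaps (3.20%) exceeded 1 Mb.

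Within each target the longer lists had the shorter gaps. Median gaps between peaks were 24776 bp in Smc1a replicate 1 and 36941 bp in replicate 2. For H3K27ac they were 16708 and 22678 bp in the WT libraries, and 21913 and 21211 bp in those lacking Rad21. Means were 30858.5 ± 8602 bp (SD, n = 2) and 20627.5 ± 2681 bp (SD, n = 4), a difference of 10231 bp with p = 0.133 in a two-sided exact permutation test, again the smallest possible. The median gaps of the libraries did not overlap between the targets, but the difference was 4148.5 bp without Smc1a replicate 2 and 16313.5 bp without replicate 1. With peaks within 1000 bp of each other merged in every list it was 6437 bp, with p = 0.533 in the same exact permutation test, so the targets were then no longer separate. The lists also differed at the short end. Gaps of at most 1000 bp were 4.93% and 5.73% in the Smc1a lists and 11.5 to 13.9% in the H3K27ac lists, where a broad acetylated stretch can be split into several peaks.

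**Figure D3:**
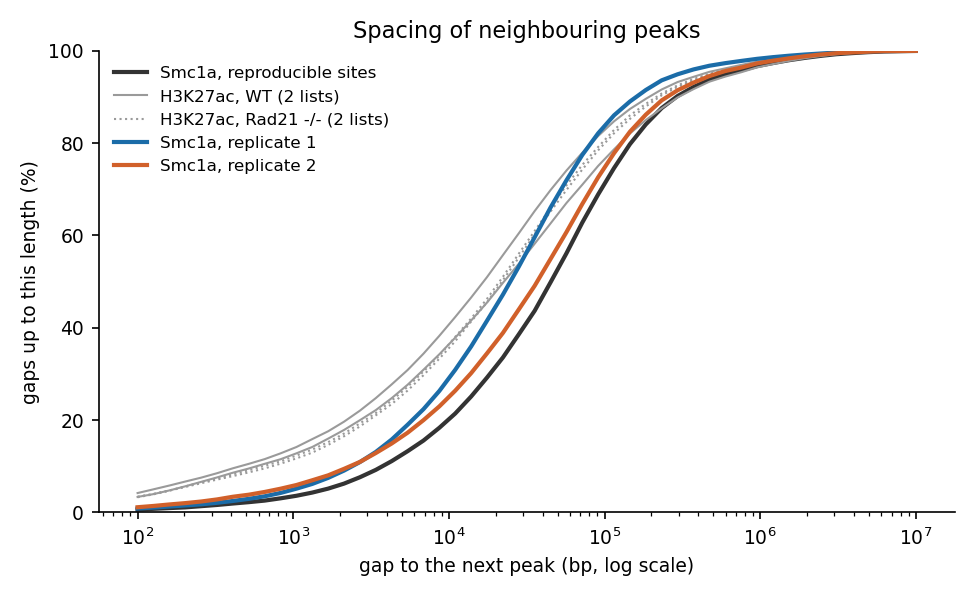
Cumulative share of gaps (y axis, percent) up to a given length (x axis, bp, log scale) for reproducible Smc1a sites, each Smc1a list and the H3K27ac lists (WT solid grey, Rad21 -/- dotted). The Smc1a curves start lower than the H3K27ac curves at short gaps, and the median gap of reproducible sites is 45194 bp.

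Large tracts held no reproducible site and few peaks of 1 list alone. On the autosomes 439 gaps between reproducible sites exceeded 1 Mb and together covered 1098.3 Mb, which is 45.8% of the 2398.5 Mb between the first and last peaks. Within them lay 697 replicate 1 peaks (2.79% of its autosomal peaks) and 316 replicate 2 peaks (1.83%), and 73 gaps held no peak of either list. Shared peaks cannot lie in such gaps, so these shares are low in part by definition. Only lone peaks can, of which the lists had 10493 and 2787 over all chromosomes. Acetylation was sparse in the same tracts, with 546 of 13570 autosomal regions (4.02%), or 0.497 per Mb against 5.66 per Mb overall. The longest autosomal gap was on chromosome 7 from 38986558 to 51128402 (12.1 Mb), with 8 peaks of replicate 1, none of replicate 2 and 7 acetylated regions. The next was on chromosome 14 from 87864385 to 99541189 (11.7 Mb), with 1 and 2 peaks and 2 acetylated regions. The third, on chromosome 1 from 108781080 to 120264469 (11.5 Mb), had 2 and 1 peaks and 2 acetylated regions. A gap is a lack of calls, and stretches of the genome to which reads cannot be assigned were not marked here.

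Counted in fixed windows of 1 Mb, the map was uneven in the same way in both libraries. Of 2377 autosomal windows 674 (28.4%) held no site, and 590 of those (87.5%) also held no acetylated region. Of the remaining windows, all with a site, 157 held no acetylated region. The median window had 4 sites, the upper quartile 10 and the fullest 41. The 237 fullest windows held 34.1% of the sites. Across windows, which neighbour each other, the Spearman correlation of peak numbers between the replicates was 0.95, and that of sites with acetylated regions 0.91. The fullest window was chromosome 9 from 32000001 to 33000000, with 41 sites and 19 acetylated regions. Chromosome 17 from 52000001 to 53000000 followed, with 40 sites and 35 acetylated regions, and then chromosome 15 from 80000001 to 81000000, with 36 and 34.

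The autosomes differed by 2.10-fold in density. Reproducible sites per Mb, over the span from the first to the last peak, had a median of 5.91 over the 19 autosomes. The densest were chromosomes 11 (9.63), 19 (7.51) and 17 (7.26), and the sparsest 14 (4.59), 8 (4.97) and 18 (5.06). The range was 2.17-fold for replicate 1 peaks and 1.99-fold for replicate 2 peaks. Chromosome 11 was the densest in both lists and in acetylated regions. Across the 19 autosomes, densities of the replicates correlated with Pearson's r of 0.91 (Spearman's rho 0.87). Sites and acetylated regions correlated with r of 0.97 (rho 0.92), and the number of sites per acetylated region stayed between 0.953 and 1.20. These correlations are descriptions over chromosomes of the same libraries.

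The X chromosome stood below every autosome. It held 2.27 sites per Mb, 2.60-fold below the autosomal median, and its acetylated regions were 2.38-fold below theirs. Its median gap of 70771.5 bp was longer than that of any autosome (36560 to 51309 bp), and its sites were narrower, with a median of 623 bp against 737 to 820 bp on the autosomes. Chromosome Y held 5 sites, from 6 peaks of replicate 1 and 13 of replicate 2. The labels do not give the sex of the mice, and its part in the density of X was not tested.

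Agreement between replicates varied less by chromosome than by score. The share of replicate 1 peaks with a partner ran from 53.2% on chromosome 19 to 65.3% on chromosome 6 and was 67.7% on X. In replicate 2 it ran from 79.4% on chromosome 10 to 90.3% on chromosome 11. The shares did not follow density throughout. In replicate 1 the lowest shares were on chromosomes 19 (53.2%, 14.2 peaks per Mb) and 8 (54.4%, 9.17 peaks per Mb), and chromosome 11, the densest, had 56.2%. In replicate 2 chromosomes 19 and 11 had high shares, 88.7% and 90.3%. Chromosome 10, with the lowest share, had 8.58 replicate 2 peaks per Mb against 8.56 on chromosome 19.

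**Figure D4:**
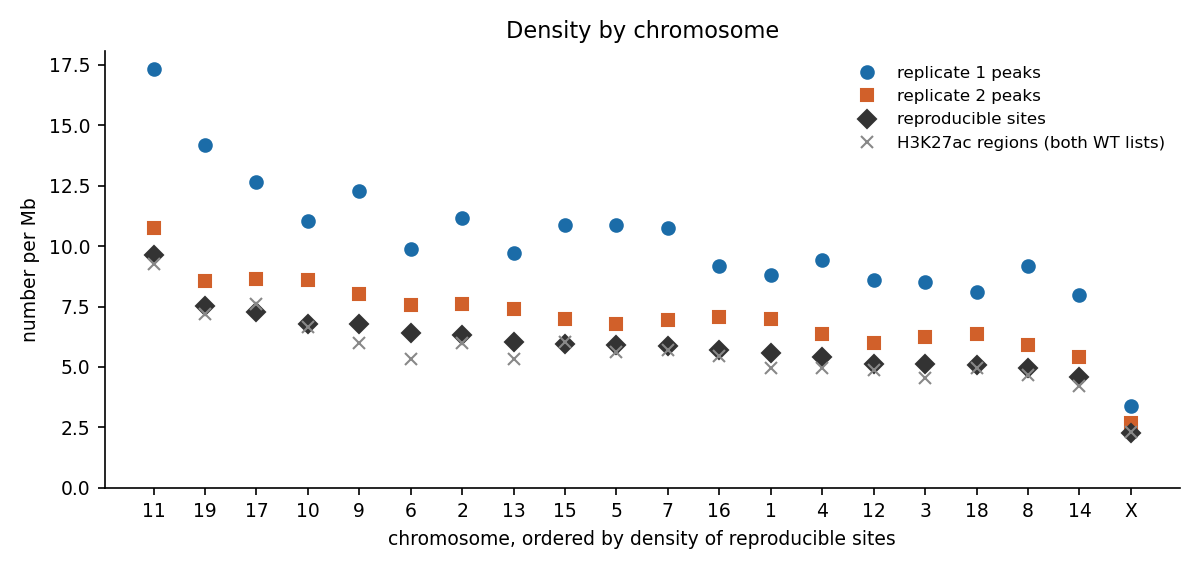
Number per Mb of span (y axis) of Smc1a peaks in each replicate, reproducible sites and H3K27ac regions of both WT lists on each autosome and X (x axis, ordered by site density). Site density falls from 9.63 on chromosome 11 to 4.59 on chromosome 14 and 2.27 on X, and the acetylated regions follow a similar order.

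The last comparison set grouped against isolated sites on the autosomes. A grouped site belonged to a run of at least 3 sites with gaps of at most 20000 bp, and an isolated site had no other site within 100000 bp. Of 14480 autosomal sites 3755 (25.9%) were grouped, in 946 groups, 1593 (11.0%) were isolated, and 9132 (63.1%) fell in between. The shares depend on those distances, as the closing section sets out, and on the peaks counted. On replicate 1 alone, without replicate 2, they were 43.0% grouped and 5.09% isolated. With peaks of either list as neighbours they were 46.7% and 3.94%. By chromosome the grouped share ran from 19.7% on chromosome 14 to 32.1% on chromosome 6. The isolated share ran from 7.17% on chromosome 11 to 16.0% on chromosome 18, and was 20.7% on X.

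Acetylation separated the classes most clearly. Acetylated regions held 44.4% of grouped sites (42.8 to 46.0%), 15.6% of those in between (14.9 to 16.4%) and 5.27% of isolated sites (4.28 to 6.48%), against 21.9% of all autosomal sites. The grouped share was the higher on 19 of 19 autosomes, by 27.3 to 50.3 percentage points. Grouped sites were 25.9% of all sites but 52.5% of the acetylated ones. The share fell in steps with the distance to the nearest other site. It was 51.2% at up to 1000 bp, 33.5% at 1000 to 5000 bp and 26.5% at 5000 to 20000 bp. It was 13.5% at 20000 to 100000 bp, 5.37% from there to 1 Mb, and 1 of the 46 sites (2.17%, 0.385 to 11.3%) beyond 1 Mb.

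Grouped sites were also wider. Their median width was 885 bp, against 766 bp in between and 673 bp for isolated sites, and they were wider than isolated sites on 19 of 19 autosomes. Part of this difference went with acetylation. Among unacetylated sites the medians were 787 and 664 bp, a difference of 123 bp in place of 212 bp, and the direction again held on 19 of 19 autosomes.

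Over all sites, score percentiles differed less consistently between the classes than acetylation and width did. In replicate 1 the median was 66.3 for grouped, 70.3 for in-between and 62.9 for isolated sites, with grouped above isolated on 12 of 19 autosomes. In replicate 2 the medians were 60.3, 56.7 and 52.4, with grouped above isolated on 18 of 19. Sites within 100000 bp of another that belonged to no group thus ranked highest in replicate 1, and grouped sites did in replicate 2. Without acetylated sites the gap in replicate 1 was larger, at 72.0 for grouped against 63.5 for isolated, and held on 19 of 19 autosomes. In replicate 2 it was 59.6 against 52.7, and held on 17 of 19.

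**Figure D5:**
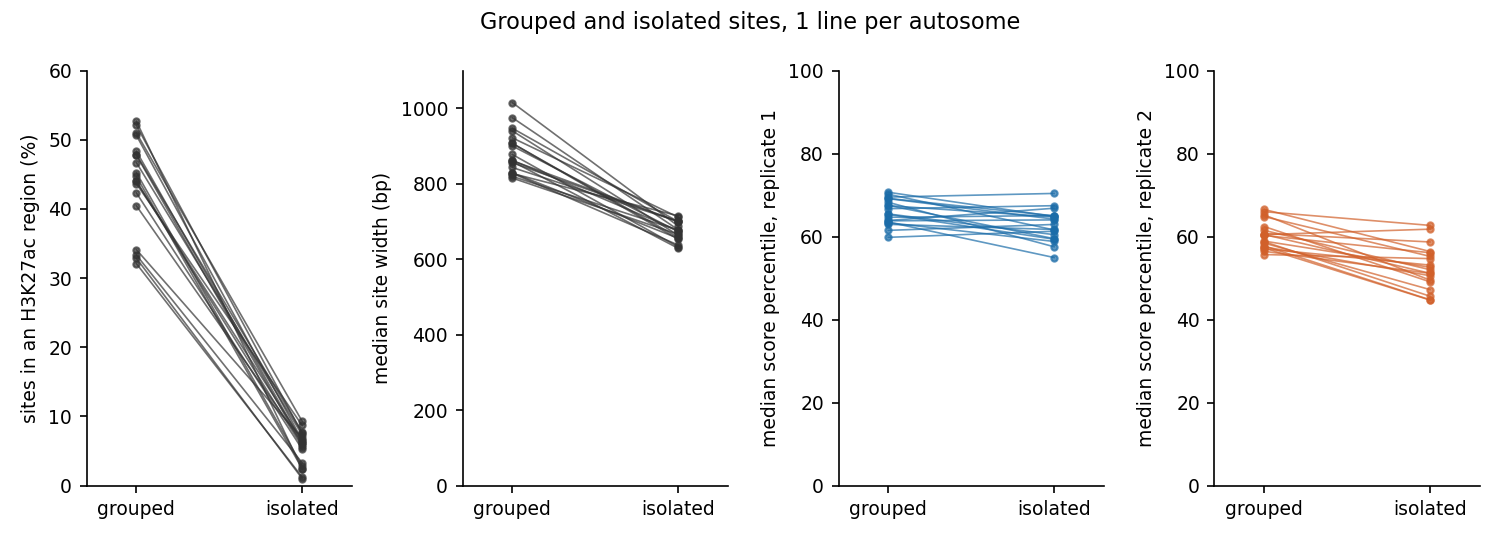
Grouped against isolated reproducible Smc1a sites, 1 line per autosome: share in an H3K27ac region of both WT lists (percent), median site width (bp) and median score percentile in replicates 1 and 2 (y axes). The acetylated share and the width fall on all 19 lines, while the replicate 1 percentile falls on 12 and the replicate 2 percentile on 18.

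Most groups were small. Of the 946 groups 541 (57.2%) held 3 sites, 203 held 4 and 202 held 5 or more, among them 20 with at least 10. The median group was 23993.5 bp long (quartiles 16442 and 34569 bp, longest 153068 bp). A group was not by itself a mark of acetylated chromatin, since 351 groups (37.1%) held no acetylated site, 448 held some and 147 (15.5%) consisted of acetylated sites alone. The acetylated share of sites rose with group size, from 30.6% in groups of 3 to 42.2% in groups of 4, 56.6% in groups of 5 to 9 and 87.3% in groups of 10 or more. Median width rose beside it, from 823 bp to 881, 965.5 and 1227.5 bp. Score percentile did not rise together with it in both lists. In replicate 1 it fell from 69.4 to 65.9, 61.9 and 58.1, while in replicate 2 it was 59.1, 60.8, 59.7 and 66.7.

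The group with the most sites was on chromosome 5 from 66214581 to 66347613. It held 30 sites, all acetylated, from 35 replicate 1 and 37 replicate 2 peaks, and H3K27ac regions covered 86.1% of its 133033 bp. Its sites ran through nearly the whole score range, from percentile 3.32 to 99.3 in replicate 1. The second group, on chromosome 5 from 149753598 to 149900264, was of another make-up, with 14 of 22 sites acetylated and 54.0% of its length covered. The third, on chromosome 6 from 71248624 to 71350377, had 17 acetylated sites of 17, a median width of 2108 bp and 94.8% coverage. Its median percentiles of 83.2 and 94.8 in replicates 1 and 2 were the highest among the 5 groups with the most sites. On chromosome 16 from 95970518 to 96123585 all 15 sites, and on chromosome 9 from 32479308 to 32568712 all 13 sites, were acetylated, with 60.8% and 84.3% of the length covered.

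Isolated sites stood a median of 160309 bp from the next site (quartiles 124083 and 247976 bp). For 1023 of them (64.2%) a peak called in 1 list alone lay within 100000 bp, of replicate 1 near 887 and of replicate 2 near 282, while 570 had none. The label isolated thus depends on counting reproducible sites only. The most remote was on chromosome 15 from 18751094 to 18751558, 6.03 Mb from the next site, 465 bp wide, with scores of 82.07 and 154.56. Next came chromosome 16 from 70568773 to 70569488 (5.05 Mb, scores 126.38 and 160.11) and chromosome 12 from 65930705 to 65931183 (4.30 Mb, scores 56.35 and 60.02). None of the 5 most remote sites was acetylated, and all 5 were narrower than the median site.

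Whether replicates agreed better on grouped or on isolated peaks depended on the list. For this comparison the classes were built on the peaks of 1 list and the partner was sought in the other. In replicate 1, 59.6% of grouped (58.6 to 60.5%), 58.1% of in-between and 55.6% of isolated peaks (52.9 to 58.3%) had a partner, against 58.8% of all. In replicate 2 the shares were 79.1% (78.0 to 80.1%), 87.9% and 80.7% (78.7 to 82.6%), against 84.3% of all. Isolated peaks had lower scores, with median percentiles of 37.2 in replicate 1 and 42.8 in replicate 2 against 51.0 and 51.4 for grouped peaks. At equal weight of the score deciles the order in replicate 1 turned, with 64.7% for isolated and 58.9% for grouped peaks. In replicate 2 the weighted shares were 84.0% and 78.6%. In-between peaks had a weighted share of 57.8% in replicate 1, the lowest of the classes, and of 87.7% in replicate 2, the highest. Compared with grouped peaks alone, isolated peaks had the higher share in 8 of 10 score deciles in replicate 1 and 9 of 10 in replicate 2.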

How the data were processed

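Smc1a and H3K27ac ChIP-seq was done on sorted thymocytes, and the 5 libraries of input DNA are not analysed here. Alignment was to build mm9 with Bowtie 0.12.8, per the submitters' processing notes. The deposited lists give each peak's position and a score, the authors' own value from a caller of the MACS family, per the peak names in the files. The caller's version, settings and control and any read filters are details not given in the sources used here. Replicates were called separately. Depth is unknown because reads are not part of the files, and a missing peak is a missing call.

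Overlaps and gaps were computed in Python 3.11.15 (pandas 2.3.3, numpy 2.4.6, scipy 1.17.1), and matplotlib 3.10.9 drew the figures. An overlap of at least 1 bp counted. Score deciles and percentiles are ranks within a list, a site taking its best peak. Medians per library were compared by two-sided exact permutation tests, and shares carry Wilson 95% intervals. The interval functions and classes were tested on simulated data. Some checks were made against bedtools 2.31.1 over 1400 intervals, and the others used separate lists with planted answers. In 8 of 8 checks the result was the same or the planted one. The members, classes and tests were chosen with earlier results of these data known. Regions were named by rule: the 5 sites with the highest mean percentile, the 5 groups with the most sites, the 5 most remote sites, the 3 longest autosomal gaps, the highest-scoring lone peaks and the 3 densest and sparsest autosomes. The windows were named after their values were seen. Alternatives tried were a stricter score threshold, equal list lengths, other overlap, merging, grouping and isolation distances, single replicates and the replicate number as a block. Motifs, nearest genes and marker genes need a genome of build mm9 and were not analysed here.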

Additional observations from a re-analysis of the deposited data

How the results depend on the processing

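Of 105 alternative values for 17 results, 103 kept their sign, 36 moved by more than a margin set per result and 2 reversed. Shares, counts, widths, gaps and ratios cannot turn negative, so a kept sign is informative for differences only. The margin was counting error, the spread between the replicates or, for the number of sites, a fold limit. For the comparisons with H3K27ac only a reversal was counted, so none of them could be among the 36. Some class shares do not depend on the distance varied. Depth is unknown, so what it limits could not be measured. With the upper 75% of each list by score, agreement was 60.4% for replicate 1 and 86.7% for replicate 2, median peak width 714.5 bp, median gap 58646 bp and the isolated share 15.5%. With equal numbers of peaks, agreement was 73.4% in each list and the rise from decile 1 to 10 in replicate 1 was 57.2 in place of 80.0 percentage points, while in replicate 2 it was 66.8 in place of 48.5, so replicate 2 then had the steeper rise. An overlap of at least 50% gave 58.0% and 82.7%, and a peak within 1000 bp gave 60.9% and 86.4%. Wherever the cause of a change does not follow from the setting, the cause was not tested.

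The class sizes followed the distances that define them. The grouped share was 13.1% with a grouping gap of 10000 bp and 53.5% with 50000 bp, and the isolated share was 25.7% with an isolation distance of 50000 bp and 3.95% with 200000 bp. With peaks of either list as neighbours the shares were 46.7% grouped and 3.94% isolated. With 1 replicate alone the median gap was 24776 to 36941 bp, the grouped share 33.0 to 43.0% and the isolated share 5.09 to 9.37%. Grouped minus isolated sites differed by 4.88 in median score percentile, with the percentiles of both lists averaged per site. This difference was 8.67 to 13.9 with 1 replicate alone and 8.64 with peaks of either list as neighbours. With isolation distances of 50000 and 200000 bp it was 2.18 and 9.16. The difference in width, 212 bp, was 248.5 bp after merging within 1000 bp and 221.5 bp with peaks of either list as neighbours. It was 274 and 166 bp with grouping gaps of 10000 and 50000 bp, and 183 and 245 bp with isolation distances of 50000 and 200000 bp. Over unacetylated sites, an alternative chosen after seeing the data, it was 123 bp. The difference in acetylated share, 39.1 percentage points, was 47.6 and 27.7 with grouping gaps of 10000 and 50000 bp, and 30.9 to 42.0 with 1 library left out. By the midpoint of the site, an alternative also chosen after seeing the data, it was 38.6, and the widest minus the narrowest width decile was 61.1 in place of 61.9 percentage points.

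The difference in replicate agreement between grouped and isolated peaks, 3.94 percentage points on replicate 1, turned to -1.63 with classes built on replicate 2 and to -5.78 when weighted over score deciles. Counting a peak of the other list within 1000 bp it was 7.41. For the comparisons with H3K27ac, a fit with the replicate block left the differences at -1330 bp for width and 10231 bp for gaps, and changed neither call. With each library left out the width difference was -1381 to -1277 bp and the gap difference 4148.5 to 16313.5 bp. Merging peaks within 1000 bp took the gap difference to 6437 bp (exact permutation test, p = 0.533). The autosomal range of density was 1.99-fold to 2.20-fold over the alternatives, the latter counted from base 1 of each chromosome, which was also chosen after seeing the data. Chromosome lengths of mm9 were not used, so density over the full length of each chromosome was not computed.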
